A study of Mus musculus with 6 samples.

Results

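The CCN family is a group of 6 secreted matricellular proteins, encoded in the mouse by Ccn1 (older symbol Cyr61), Ccn2 (Ctgf), Ccn3 (Nov), Ccn4 (Wisp1), Ccn5 (Wisp2) and Ccn6 (Wisp3). All 10 probes that the platform annotation assigns to these genes were taken, and 5 of the 6 genes had at least 1 probe. Ccn6 had none in this annotation, so no value is given for it. The family was chosen by its transcript levels in the comparison described here, so its values are a description and carry no test. The 5 measured genes stood among 10160 genes tested.

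RNA came from 2 Rnaseh2b-/- and 4 Rnaseh2b+/+ lines of mouse embryonic fibroblasts (MEFs), the adherent cells that grow out of dissociated embryos. Every line was also p53-/-, was on a C57BL/6J background, started from an individual whole embryo at E10.5 and was passage matched and confluent, in 3% O2, with fetal calf serum and a last medium change 20 h before extraction. Rnaseh2b encodes a subunit of RNase H2, the enzyme that removes ribonucleotides from DNA, and its null allele (tm1d) had lost exon 5. Both Rnaseh2b-/- lines had been picked by the study from a larger set of lines for their stronger interferon-stimulated gene levels, so they are not a random draw of that genotype. Each line was measured once on a 1-colour Illumina MouseWG-6 array, and values are normalized log2 signals unless stated otherwise.

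CCN proteins sit in the extracellular matrix without forming its scaffold. They are built of modules that resemble insulin-like growth factor binding proteins, von Willebrand factor type C repeats, thrombospondin type 1 repeats and a cystine knot, the last of which CCN5 lacks. They bind integrins, heparan sulphate proteoglycans and growth factors, and in fibroblasts they are known for roles in adhesion, matrix turnover, wound repair and fibrosis. CCN1 and CCN2 are textbook targets of the Hippo pathway coactivators YAP and TAZ, which act through TEAD DNA-binding factors, and both genes also respond to serum, SRF and TGF-beta. Ccn4 and Ccn5 were first described as genes induced by Wnt1 in mouse mammary cells.

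Because the TEAD link of Ccn1 is the best-known route to this family, the 250 bases before its start were read from the RefSeq promoter table (GRCm38.p6, chr3:145649986-145650235, minus strand). Capitals mark CATTCC, the TEAD letters GGAATG on the other strand, at positions -103 to -98, and TATAAA, the letters of a TATA box, at -25 to -20 from the start.
Ccn1: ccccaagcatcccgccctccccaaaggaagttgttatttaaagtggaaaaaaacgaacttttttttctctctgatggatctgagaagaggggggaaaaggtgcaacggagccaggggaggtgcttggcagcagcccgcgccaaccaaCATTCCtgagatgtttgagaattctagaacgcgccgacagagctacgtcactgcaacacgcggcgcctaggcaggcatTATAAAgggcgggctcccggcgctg
Searched on both strands, GGAATG occurred in 12.6% of 32851 promoter windows of the same 250 bases and TATAAA in 12.4%. The window of Ccn1 held none of the other letters searched, which were the AP-1 letters TGANTCA (in 6.75% of windows), the SMAD letters GTCTAGAC (0.167%) and the CArG box of SRF (1.47%). The window of Ccn6 matched none of the 5 motifs, and Ccn2 to Ccn5 had no entry. For comparison, 30 bases around the same letters are shown from the windows of Amotl2 (chr9:102717727-102717756, plus strand) and Ankrd1 (chr19:36120037-36120066, minus strand), both known YAP targets measured on these arrays.
Amotl2: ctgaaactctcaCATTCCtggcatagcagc
Ankrd1: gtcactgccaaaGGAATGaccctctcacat
These matches are letters in a window, and binding was not measured.

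The genotype labels were first checked on Rnaseh2b itself. Its signal was 5.43 and 5.53 in the Rnaseh2b-/- lines and 9.81, 9.17, 9.48 and 9.50 in the controls (log2 fold change -4.01, limma adjusted p = 0.00121). Before normalization the median probe intensity was 107.6 to 115.2 on the Rnaseh2b-/- arrays and 124.1 to 129.3 on the control arrays, and 15519 to 16114 probes were detected per array. All 14 fibroblast markers listed were detected on all 6 arrays. Rnaseh2b-/- replicate 1 stood apart by skeletal and cardiac muscle markers, of which 12 of 16 were tested: their summed linear signal was 60173 in that line, 2945 in Rnaseh2b-/- replicate 2 and 1207 to 2753 in the controls. Members are therefore given line by line.

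Of the 5 measured CCN genes, 4 had both Rnaseh2b-/- lines below all 4 control lines, and 1 (Ccn3) overlapped. Among all genes, 15.1% lay below in this way and 12.5% lay above. Of the members 1, Ccn5, passed the limma threshold in the fit over all genes as lower, where 0.157% of genes were called lower and 0.354% higher. These counts come from the comparison that chose the family, and nothing is read from them. The median log2 difference over the 5 genes was -0.63 with 4 of 5 below 0, against -0.02 and 52.6% below 0 over all 10160 genes. In bulk RNA, fewer cells of a type and less RNA per cell cannot be told apart. In a design of 2 against 4 lines, the smallest p that an exact permutation test allows is 0.0667.

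**Figure D1:**
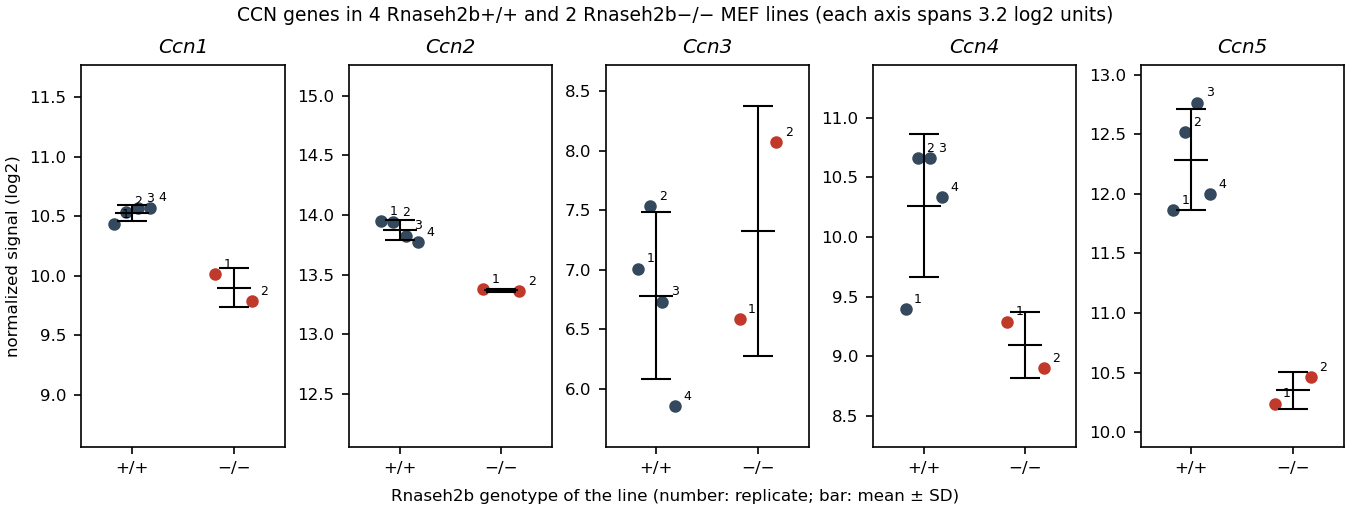
Normalized signal (log2, vertical axis) of the 5 measured CCN genes in 4 Rnaseh2b+/+ and 2 Rnaseh2b-/- MEF lines; points are lines, numbered by replicate, and bars are the mean ± SD. Each axis spans the same number of log2 units; Ccn5 shows the widest gap between the genotypes (1.40), Ccn4 the narrowest of the 4 genes that do not overlap (0.10), and the groups of Ccn3 overlap.

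Ccn5 encodes the family member without the cystine knot, known in smooth muscle cells and fibroblasts for restraining growth and motility. Its 1 probe gave 10.24 and 10.46 in the Rnaseh2b-/- lines and 11.86, 12.52, 12.76 and 12.00 in the controls. Both Rnaseh2b-/- lines were low and close to each other, and the lowest control lay 1.40 above the higher of them. The mean was 10.35 ± 0.16 (SD, n = 2) against 12.29 ± 0.43 (SD, n = 4), a difference of -1.94 (standard error 0.27), or 3.83-fold lower. On this scale 19 genes (0.187%) had a more negative difference. The intensity before normalization gave the same order, with 1109 to 1361 in the Rnaseh2b-/- lines and 4011 to 7686 in the controls, a ratio of means of 4.56. That ratio is not adjusted for the lower median intensity of the Rnaseh2b-/- arrays. With 1 probe, no second sequence of the gene was available to set beside it.

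Ccn4 encodes a secreted protein of bone, cartilage and fibroblast biology that is induced by Wnt1. Its 2 probes averaged 9.29 and 8.90 in the Rnaseh2b-/- lines and 9.39, 10.66, 10.66 and 10.33 in the controls. The groups were separated by 0.10 only, because control replicate 1 lay near the Rnaseh2b-/- lines and was the lowest control by far. The mean was 9.10 ± 0.28 (SD, n = 2) against 10.26 ± 0.60 (SD, n = 4), a difference of -1.17 (standard error 0.37), or 2.25-fold lower. Without control replicate 1 the difference was -1.46, and Ccn4 then also passed the threshold, together with Ccn5. The controls alone spanned 1.27, or 2.41-fold, which exceeds the difference between the genotypes. Both probes had the same sign, -1.26 and -1.07, although 1 of them was dim and the other bright.

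Ccn1 encodes an integrin-binding protein, an immediate-early gene product that promotes adhesion and, in healing wounds, fibroblast senescence. Over its 3 probes the signal was 10.01 and 9.79 in the Rnaseh2b-/- lines and 10.43, 10.54, 10.57 and 10.57 in the controls. The controls agreed to within 0.14, and both Rnaseh2b-/- lines lay below them by at least 0.42. The mean was 9.90 ± 0.16 (SD, n = 2) against 10.53 ± 0.07 (SD, n = 4), a difference of -0.63 (standard error 0.13), or 1.55-fold lower. Its 3 probes gave -0.46, -0.74 and -0.69.

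Ccn2 encodes connective tissue growth factor, a cofactor of TGF-beta in fibrosis. Its 2 probes averaged 13.38 and 13.36 in the Rnaseh2b-/- lines and 13.95, 13.94, 13.83 and 13.78 in the controls. The Rnaseh2b-/- lines differed by less than the controls did among themselves, and the gap between the groups was 0.40. The mean was 13.37 ± 0.01 (SD, n = 2) against 13.87 ± 0.09 (SD, n = 4), a difference of -0.50 (standard error 0.13), or 1.42-fold lower, with -0.55 and -0.46 by probe. Ccn1 and Ccn2 thus separated the groups by small differences: 4.34% and 7.52% of all genes had a more negative difference.

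Ccn3 encodes a CCN protein known to oppose CCN2 in fibrosis models. It was the only measured member whose groups overlapped, with 6.59 and 8.07 in the Rnaseh2b-/- lines and 7.01, 7.54, 6.73 and 5.86 in the controls. Rnaseh2b-/- replicate 2 was the highest of the 6 lines and control replicate 4 the lowest, while Rnaseh2b-/- replicate 1 fell inside the range of the controls. The mean was 7.33 ± 1.05 (SD, n = 2) against 6.78 ± 0.70 (SD, n = 4), a difference of 0.54 (standard error 0.54). The sign rests on 1 line: the difference was 1.29 without Rnaseh2b-/- replicate 1 and -0.20 without Rnaseh2b-/- replicate 2. Its probes, 1 of them designed on a cDNA clone, gave 0.32 and 0.77.

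Probe by probe, both Rnaseh2b-/- lines lay below all controls on 8 of the 8 probes of Ccn1, Ccn2, Ccn4 and Ccn5 and on 0 of the 2 probes of Ccn3. These probes belong to the genes already given as below, on the same lines, so they are not separate results. The share over all probes was not computed, and among all genes 15.1% lay below in this way. The same count of 8 held for the intensities before normalization. Their median over all probes was 107.6 to 115.2 on the Rnaseh2b-/- arrays and 124.1 to 129.3 on the control arrays. Low values on the Rnaseh2b-/- arrays were thus favoured for any probe. All 10 probes were detected on all 6 arrays.

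**Figure D2:**
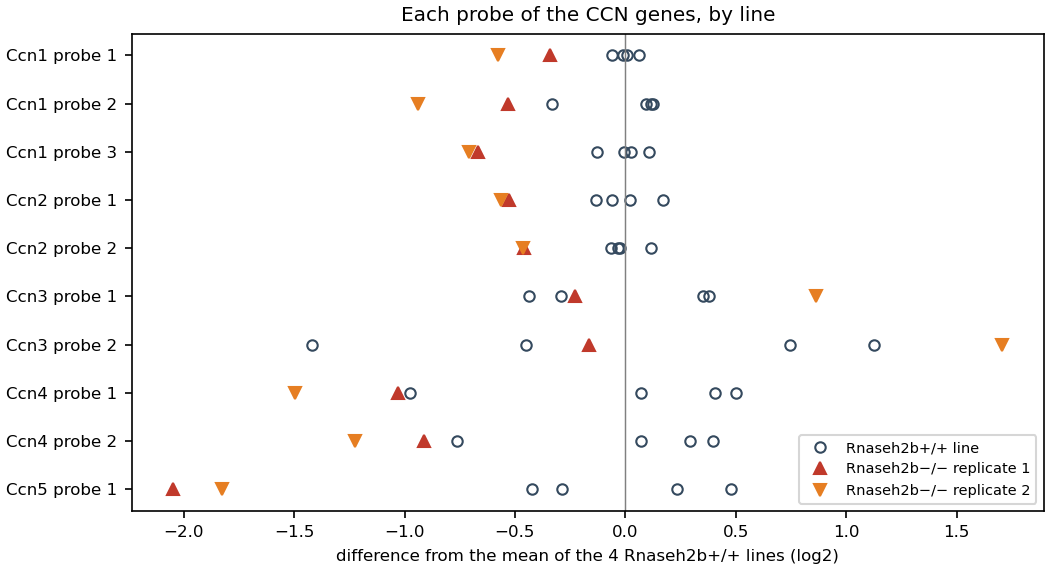
Difference of each line from the mean of the 4 Rnaseh2b+/+ lines (log2, horizontal axis) for each of the 10 CCN probes; open circles are control lines and triangles the 2 Rnaseh2b-/- lines. On 8 probes both triangles lie left of every circle; on the 2 Ccn3 probes they do not, and Rnaseh2b-/- replicate 2 lies to the right of all circles.

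Both Rnaseh2b-/- lines contributed to the lower values. Against the control mean, Rnaseh2b-/- replicate 1, the line with the muscle markers, had differences of -0.51 for Ccn1, -0.49 for Ccn2, -0.97 for Ccn4 and -2.05 for Ccn5. For Rnaseh2b-/- replicate 2 they were -0.74, -0.51, -1.36 and -1.82 in the same order. The muscle sum of Rnaseh2b-/- replicate 2 was far below that of replicate 1 and only just above the highest control (2945 against 2753). For 9 of the 12 tested muscle markers both Rnaseh2b-/- lines lay above all controls, against 12.5% of all genes. Apart from Myl7, with a gap of 2.03, the gaps were only 0.005 (Ttn) to 0.30 (Myl4). Of the 9, Myod1 and Ttn were detected in only 1 Rnaseh2b-/- line. The 1 marker called, the atrial myosin light chain gene Myl7, rose (7.32 and 6.87 against 4.41 to 4.84, limma adjusted p = 0.0095). As no control detected Myl7, its rise is a bound, at least 2.89-fold higher. As a count of calls, no member passed the threshold without Rnaseh2b-/- replicate 1, where 1 line then stands against 4.

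The markers of other cell types were summed in the same way. The summed linear signal of the 14 fibroblast markers was 34906 to 39418 in the Rnaseh2b-/- lines and 41557 to 45346 in the controls, with no marker called. Their mean log2 signal, in which bright genes weigh less, overlapped: it was 9.61 and 10.11 in the Rnaseh2b-/- lines and 9.88 to 10.07 in the controls. For 7 tested of 12 epithelial markers the summed signal was 1451 to 3521 against 318 to 597, with none called and a median log2 fold change of 2.40. For 5 of the 7, Krt7, Krt8, Krt14, Krt18 and Krt19, both Rnaseh2b-/- lines lay above all controls, against 12.5% of all genes. Their log2 fold changes were 2.31 to 3.18. Cdh1 and Cldn7 overlapped, and Epcam, Cldn6, Cldn4 and Esrp1 were detected on no array. The summed signal of the smooth muscle markers (6 of 8 tested) overlapped, at 5659 to 10022 against 6524 to 8302. It includes Des, which is also on the skeletal and cardiac muscle list and read 12.09 in Rnaseh2b-/- replicate 1. For 3 of the 6, Acta2, Tagln and Lmod1, both Rnaseh2b-/- lines lay below all controls, and for 1, Des, above. Among all genes these shares were 15.1% and 12.5%. Cartilage markers (5 of 10 tested) were at 1653 to 1676 against 1630 to 1976, and 1 of them, the cartilage collagen gene Col2a1, fell (-1.71, limma adjusted p = 0.0278). Of the other 4, Sox9 was at 0.27, Col11a2 at -0.02 and Comp at -0.47, Acan was detected in 1 Rnaseh2b-/- line and no control, and the list median was -0.02. Neural markers (5 of 10 tested) were at 838 to 1338 against 1065 to 2260. Of the endothelial and the blood markers 2 of 10 each were tested, at 175 to 207 against 117 to 183 and at 98.1 to 102.5 against 68.4 to 162.3, and Pecam1, Cdh5 and Ptprc were detected on no array. The part of these cell type differences in the CCN values was not tested.

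Likeness of the members over the 6 lines was measured as the root mean square difference of the centred log2 signals, a description in which the genotype difference itself takes part. Ccn1 and Ccn2 differed by 0.13, and 94 of the other genes lay closer to Ccn1 than Ccn2 did. Ccn4 lay about as far from Ccn1 (0.46) as from Ccn5 (0.47) and farther from Ccn2 (0.56), and Ccn5 differed from Ccn1 by 0.69 and from Ccn2 by 0.75. Counted around Ccn1, 7465 genes lay closer to it than Ccn4 did. Counted around Ccn4, 374 genes lay closer to it than Ccn5 did. These counts have different centres, a gene spanning 0.79 over the 6 lines (Ccn1) and a gene spanning 1.76 (Ccn4). They therefore cannot be compared, and the count around Ccn4 for Ccn1 was not computed. Ccn4 and Ccn5 both had their highest values in control replicates 2 and 3. Every pair with Ccn3 differed by 0.79 to 1.31.

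For the 3 members whose signals spanned at least 1 log2 unit, the 5 closest genes were listed. Nearest to Ccn5 were Entpd4 (0.22), Col2a1 (0.26), P4ha3 (0.26), which encodes a collagen prolyl hydroxylase subunit, Homer2 (0.28) and Nox4 (0.30), an NADPH oxidase gene. Homer2 was not detected in either Rnaseh2b-/- line, so its difference is a bound of at least 3.27-fold lower, set by the lowest signal among detected probes. Nearest to Ccn4 were Ttll5 (0.10), Pax3 (0.14), Fam20a (0.18), Auts2 (0.19) and Flrt3 (0.20), all of which shared its low value in control replicate 1. Pax3, a transcription factor of neural crest and muscle progenitors, was detected in no Rnaseh2b-/- line and in 3 of 4 controls. Nearest to Ccn3 were Pid1 (0.28), Nsg1 (0.29), Usp25 (0.31), Id2 (0.33) and Bace2 (0.33), each with its highest value in Rnaseh2b-/- replicate 2 and its lowest or next to lowest in control replicate 4.

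**Figure D3:**
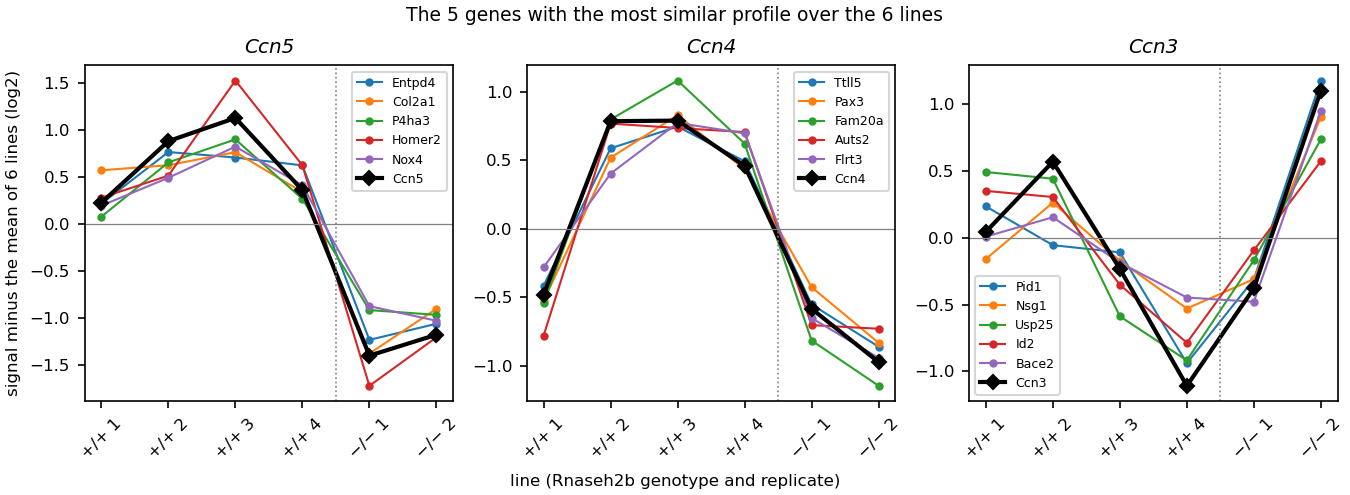
Signal minus the mean of the 6 lines (log2, vertical axis) for Ccn5, Ccn4 and Ccn3 (black diamonds) and the 5 genes closest to each (coloured circles) in the 4 Rnaseh2b+/+ and 2 Rnaseh2b-/- lines (horizontal axis). In the Ccn5 panel all 6 genes drop between the genotypes; in the Ccn4 panel control replicate 1 is also low; in the Ccn3 panel Rnaseh2b-/- replicate 2 is the high point.

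The genes known to act upstream of the family, beside it and on its receptors were then examined in 9 lists that hold no CCN gene. Of 144 different genes tested, 1 was called lower and 0 higher by limma at an adjusted p under 0.05 over all genes. Counts before adjustment are given for each list and stand beside 928 lower and 812 higher among all 10160 genes.

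Hippo pathway components and TEAD factors gave 0 calls among 17 tested genes (before adjustment 2 higher and 2 lower, p under 0.05), with a median log2 fold change of -0.13. The coactivators themselves overlapped between the groups: the log2 fold change of Yap1 was -0.07 with a standard error of 0.18, and that of Wwtr1, which encodes TAZ, was -0.003 with a standard error of 0.17. Tead1 was at -0.29 (standard error 0.21). The smallest p-values belonged to Wwc1, a scaffold that activates the LATS kinases (0.67, adjusted p = 0.200), and to Mob1b, a LATS cofactor (0.39, adjusted p = 0.206). The array reads transcripts only, and YAP activity depends largely on phosphorylation and location.

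Of 16 tested YAP/TAZ-TEAD targets other than Ccn1 and Ccn2, 1 was called lower and 0 higher (before adjustment 4 lower and 1 higher, p under 0.05), and the median was -0.21. Fjx1, which encodes a secreted relative of the Drosophila four-jointed kinase, fell. It read 6.94 and 7.10 in the Rnaseh2b-/- lines against 8.09, 7.93, 7.94 and 7.94 in the controls. Both Rnaseh2b-/- lines were well below controls that hardly differed, which gave -0.95 on the log2 scale (standard error 0.13) and an adjusted p of 0.0415 in limma. That call was lost without control replicate 2, 3 or 4, and with cyclic loess, the brightest probe or the replicate block. With 1 line left out the log2 fold change was -1.04 to -0.87, the latter without Rnaseh2b-/- replicate 1. The 2 probes of Fjx1 differed in size: the brightest gave -0.66, and -1.24 was reached when each probe was tested. Without background correction it was -0.57. For the 2 targets whose TEAD letters are shown above, Amotl2 was at -0.46 (standard error 0.17, adjusted p = 0.243) and Ankrd1 0.26 (standard error 0.23, adjusted p = 0.598). Of all genes on this list, measured or not, 16 had a promoter window, and 6 of these genes had a window with GGAATG on either strand. The share of 12.6% given above counts windows and not genes, so the 2 are not like for like.

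Serum and SRF immediate-early genes gave 0 calls among 21 (before adjustment 3 each way, p under 0.05), with a median of -0.09. Atf3, a stress-induced transcription factor gene, was at 0.69 (adjusted p = 0.0962), and Srf at -0.55 (adjusted p = 0.162). Atf3 was detected in both Rnaseh2b-/- lines but in only 1 control, and its log2 fold change was as low as 0.25 under other processing. The cytoskeletal targets of SRF and MRTF gave 0 calls among 17 (before adjustment 1 higher and 6 lower, p under 0.05), with a median of -0.13. Cald1, which encodes the actin-binding protein caldesmon, was at -0.62 (adjusted p = 0.133). Tpm2, a tropomyosin gene of muscle, was at 1.51 (adjusted p = 0.183), with 10.39 in Rnaseh2b-/- replicate 1 and 8.53 in replicate 2 against 7.79 to 8.20 in the controls. Its sign turned to -0.07 when the brightest probe stood for the gene.

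TGF-beta targets had the lowest median of the 9 lists, -0.31, with 0 calls among 18 (before adjustment 1 higher and 4 lower, p under 0.05). Thbs1 encodes thrombospondin-1, a matricellular protein that activates latent TGF-beta. It read 8.84 and 9.23 in the Rnaseh2b-/- lines against 10.01 to 10.504 in the controls (-1.19, standard error 0.19, adjusted p = 0.0576). The groups were separated, but the test missed its threshold; it passed under 4 of the other ways of processing, median scaling among them. Pmepa1, which encodes a feedback inhibitor of TGF-beta signalling, was at -1.09 (adjusted p = 0.0884).

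Wnt/beta-catenin targets gave 0 calls among 10 (before adjustment 2 each way, p under 0.05), with a median of -0.05. Apcdd1, a Wnt inhibitor gene, was at 1.25 (adjusted p = 0.129). Sp5, a transcription factor gene induced by Wnt, was detected in 1 Rnaseh2b-/- line and in no control (adjusted p = 0.0772), and no fold is given for it.

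CCN receptors and partners, the integrins, proteoglycans, LRP receptors and growth factors that CCN proteins bind, gave 0 calls among 24 (before adjustment 1 higher and 3 lower, p under 0.05), with a median of -0.28. Lrp1, an endocytic receptor of CCN2, was at 0.77 (adjusted p = 0.127), and Cd44, the hyaluronan receptor, at -0.48 (adjusted p = 0.179). The integrin chains Itgb1 and Itgav were at -0.36 (standard error 0.18) and -0.10 (standard error 0.13).

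Other matricellular proteins gave 0 calls among 15 (before adjustment 2 each way, p under 0.05), with a median of -0.23 and Thbs1 among them. Tnxb, which encodes tenascin-X, was detected in both Rnaseh2b-/- lines and in no control, at least 1.18-fold higher (adjusted p = 0.0608). Insulin-like growth factors, their receptors and binding proteins, which share a module with the CCN family, gave 0 calls among 10 (before adjustment 2 each way, p under 0.05), with a median of -0.14. Igfbp2 read 10.40 and 9.94 in the Rnaseh2b-/- lines and 11.31, 13.32, 13.69 and 12.83 in the controls. Control replicate 1 was low for this gene as it was for Ccn4, and the log2 fold change of -2.62 (standard error 0.61) had an adjusted p of 0.119. Igfbp6 was at 0.66 (adjusted p = 0.230).

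**Figure D4:**
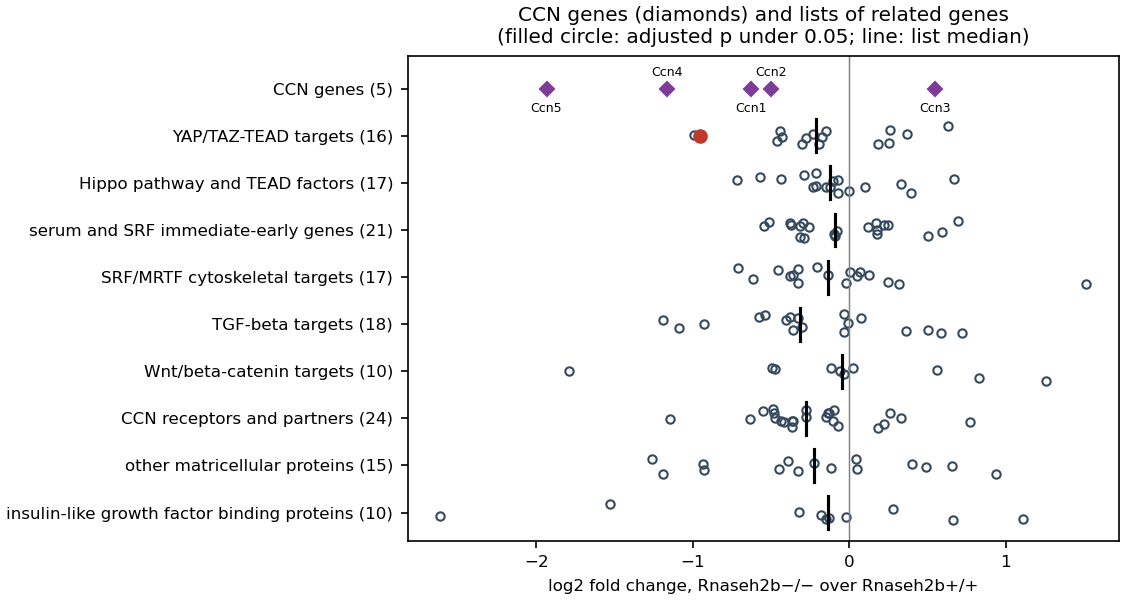
Log2 fold change, Rnaseh2b-/- over Rnaseh2b+/+ (horizontal axis), of the 5 CCN genes (diamonds) and of each tested gene in 9 related lists (circles, number tested in brackets); vertical lines are list medians and the filled circle is the 1 gene called, Fjx1. List medians lie between -0.31 and -0.05, and the CCN genes range from -1.94 to 0.54.

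The members' differences kept their sign under the other ways of processing, apart from Ccn3 when 1 line was left out. Over these settings, each with 1 value per gene, Ccn5 ranged from -2.13 to -1.78, Ccn4 from -1.46 to -0.93, Ccn1 from -0.82 to -0.51, Ccn2 from -0.75 to -0.46 and Ccn3 from -0.20 to 1.29. The largest differences of Ccn1 and Ccn2 came with plain median scaling, which also moved the median of all genes to -0.16.

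**Figure D5:**
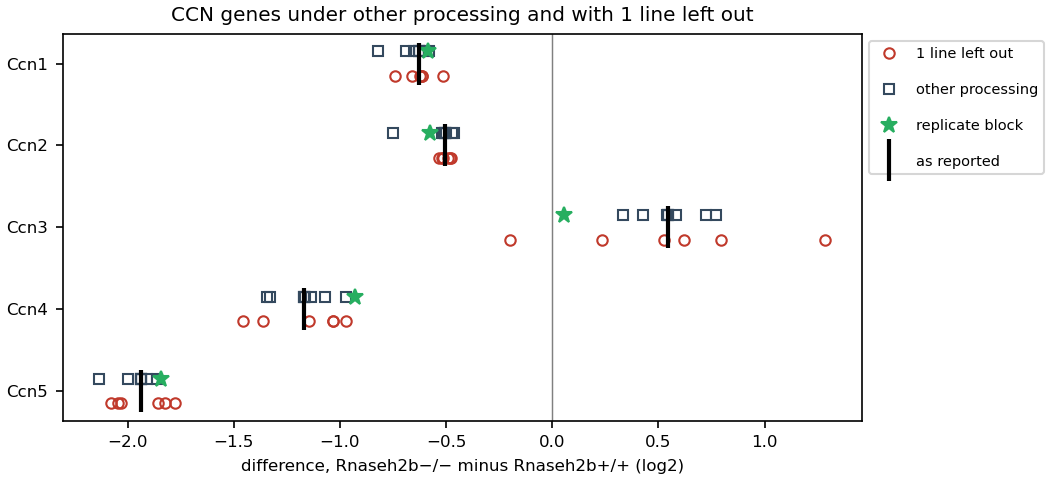
Difference between the genotypes (log2, Rnaseh2b-/- minus Rnaseh2b+/+, horizontal axis) of each CCN gene as reported (black bar), under other processing (squares), with the replicate block (star) and with 1 line left out (circles). All values of Ccn1, Ccn2, Ccn4 and Ccn5 are below 0, and those of Ccn3 run from -0.20 to 1.29.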

How the data were processed

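RNA of 6 MEF lines was hybridised to Illumina MouseWG-6 arrays. Per the paper's methods and the file headers, the authors deposited bead-summary probe intensity without background correction or normalization, and a detection p-value for each probe. The authors also deposited log2 values after neqc background correction and quantile normalization, which served as an alternative. These had the same median, 4.77, on every array.

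In R 4.3.3, neqc of limma 3.58.1 (offset 16) was run on the intensity, with the background taken from the detection p-values. Of 45281 probes, 34885 had 1 symbol, 18 several and 10378 none in the platform annotation, and only the first were used. Older symbols were replaced through the gene number in RefSeq's GRCm38.p6 table. Probes detected at p under 0.01 on at least 1 array (18271, of which 15805 had 1 symbol) were averaged per gene, which left 10160 genes. A linear model of 2 groups (4 residual and 3.07 prior degrees of freedom) gave moderated p-values, adjusted by Benjamini-Hochberg over all genes, with 0.05 as the threshold. Where no array of a group detected a gene, its fold is a bound against the lowest signal among detected probes. The steps were tested on simulated data.

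The members and lists were chosen with earlier results of these data known. Genes named are every member, Rnaseh2b, for each list up to 3 called genes with the largest change or, with none, the 2 smallest p-values, and the 5 genes of closest profile for members spanning 1 log2 unit. Yap1, Wwtr1, Tead1, Itgb1, Itgav, Amotl2, Ankrd1 and the marker genes with values fall outside that rule and were chosen with their values in view, and the search for TATAAA was added after reading the sequence. The labels call the lines biological replicates, and the paper's methods call the MEF lines independent. The number of arrays limits the precision, and no shared BeadChip or scan batch was named in the sources used here. The alternatives were 4 other normalizations (the deposited log2 values, median scaling, cyclic loess and no background correction), no filter and a stricter one, the brightest probe or each probe, a replicate block, 2 variance models (trend with robust fitting, array weights) and the omission of single lines. Proteins and the other mouse tissues of the study were not analysed here.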

Additional observations from a re-analysis of the deposited data

Results flagged for a closer look

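In 2 of 21 sets of 4 control values, 1 line stood apart from the other 3 by Dixon's criterion, where chance gives about 1 in 20, or 1.05 sets. For Fjx1, control replicate 1 (8.09) lay above the others (7.93 to 7.94), with a gap of 0.903 of the range. For Sp5, which was below detection in every control, control replicate 4 (4.46) lay below the others (4.67 to 4.71), with a gap of 0.833 of the range. No CCN gene was among them.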

How the results depend on the processing

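Ccn5 was the 1 CCN gene called lower. The count became 0 with no filter, with array weights and with the replicate block, and 2 (Ccn2 and Ccn5) with a variance trend and robust fitting. With each line left out it was 0 to 2: 0 without Rnaseh2b-/- replicate 1 or control replicate 2, 3 or 4, and 2 without control replicate 1. Over all genes, 36 were higher and 16 lower. Median scaling gave 29 and 25, cyclic loess 32 and 8, no filter 18 and 9, the stricter filter 61 and 32, the variance trend 55 and 36, and the lines left out 0 to 296 and 1 to 114. Ccn1 moved to -0.82 and Ccn2 to -0.75 with median scaling, and Ccn1 was -0.74 to -0.51 with each line left out. The 1 YAP/TAZ-TEAD target called lower became 0 with cyclic loess, the brightest probe and the replicate block, and 0 to 1 with lines left out. Among TGF-beta targets and among other matricellular proteins 0 became 1 lower (Thbs1 in both lists) with median scaling, no background correction, the stricter filter and the variance trend, and 0 to 2 with lines left out. Higher calls in these lists were 0 to 1 with lines left out, and 1 matricellular gene (Tnxb) with the stricter filter. Leaving out lines also gave 0 to 1 higher for Hippo, SRF/MRTF and Wnt genes, 0 to 1 lower for Wnt genes and CCN receptors, and 0 to 2 lower for insulin-like growth factor binding proteins. The log2 fold change of Tpm2 turned to -0.069 with the brightest probe. Causes were not tested.

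Replicate numbers 1 and 2 occur in both groups, but nothing says that they pair lines, and deviations of same-numbered lines correlated at 0.10 and 0.06. Rnaseh2b-/- replicate 2 and control replicate 3, with unlike numbers, correlated at 0.07. The deviations of 2 lines from their mean mirror each other, so these correlations cannot decide a pairing. A replicate block on the 4 lines numbered 1 and 2 left 0 genes higher and 0 lower by limma (448 and 461 at an unadjusted p under 0.05).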
